A study of Mus musculus with 12 samples.

Results

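The 10 imprinted genes Peg10, Sgce, Dlk1, Meg3, Peg3, Ndn, Magel2, Nnat, Plagl1 and Mest, were described in heart and cerebrum of mice given phosphatidylserine (PS) or vehicle. They were taken as the rows of the deposited table whose single annotated gene symbol is one of these names, which gave 10 of 18820 gene symbols, each with 1 transcript cluster (the set of probes that measures 1 gene). The genes were brought together with the low levels of Dlk1 and Peg10 in the cerebrum of PS mice already known. Their PS against MCT values in cerebrum are therefore given as a description, with no test.

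The study measured total RNA on 12 Affymetrix whole-transcript arrays and asked whether PS alters gene expression in mice that model familial dysautonomia (FD), a disease of IKBKAP splicing. The groups were heart of PS mice, heart of MCT mice, cerebrum of PS mice and cerebrum of MCT mice, with 3 arrays each. All 12 arrays carry the same label for strain, C57BL/6J, and for genotype, a humanized IKBKAP knock-in written FDloxP/+. By these labels no group stands for mice without the knock-in. PS mice received PS at 200 mg/kg by gavage and MCT mice received medium-chain triglycerides, the vehicle, in 100 microliter every other day for 3 months starting at 4 months of age. The labels disagree on some points: the design text gives 6 FD mice, whereas the growth protocol names 3 FD and 3 wild-type mice. Whether genotype differed between the groups is therefore not settled. The source names give the PS dose per day.

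Imprinted genes are expressed mainly or only from the copy inherited from 1 parent, and many lie in clusters in which DNA methylation set in the germ line marks 1 of the 2 parental copies. Many are highly expressed in the embryo and placenta and fall in most tissues after birth, while the brain keeps a high level of several of them. The arrays do not separate the 2 parental copies, so each value is the sum of both. In whole tissue, fewer cells of a type and less RNA per cell cannot be told apart.

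Some features of the arrays touch the results. Xist, the RNA of the inactive X chromosome, was between 8.92 and 9.86 on the log2 scale in all 3 heart PS arrays and in cerebrum PS 1 and PS 3, and between 3.32 and 4.03 in cerebrum PS 2 and all 6 MCT arrays. In heart, a female pattern and PS therefore cannot be told apart. In cerebrum they go together in part, since PS 2 was the only PS array with the male pattern of the MCT arrays. The part of sex in the cerebrum differences was not tested. Heart PS 2 and cerebrum PS 2 do not have the pattern of 1 mouse. The tissue labels held: the cardiomyocyte markers summed to between 14.21 and 14.42 in the heart arrays, and the neuron markers to between 13.53 and 13.78 in the cerebrum arrays, on the log2 scale. The array medians were between 4.89 and 5.0. The labels call the arrays biological replicates without naming the mouse of each, and p-values measure only the spread between these samples.

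The promoters of 4 of the genes are shown because neighbours that share a regulatory region differed in cerebrum, as described below. RefSeq promoter windows (250 bases before to 50 bases after the start, GRCm38.p6) were matched by symbol for 8 of the 10 genes; Peg10 and Sgce were not among them. Capitals mark CG dinucleotides, the sites of DNA methylation in mammals. The windows are Dlk1 at chr12:109452573-109452872 on the plus strand, Meg3 at chr12:109540746-109541045 on the plus strand, Peg3 at chr7:6730370-6730669 on the minus strand and Mest at chr6:30737800-30738099 on the plus strand.
Dlk1: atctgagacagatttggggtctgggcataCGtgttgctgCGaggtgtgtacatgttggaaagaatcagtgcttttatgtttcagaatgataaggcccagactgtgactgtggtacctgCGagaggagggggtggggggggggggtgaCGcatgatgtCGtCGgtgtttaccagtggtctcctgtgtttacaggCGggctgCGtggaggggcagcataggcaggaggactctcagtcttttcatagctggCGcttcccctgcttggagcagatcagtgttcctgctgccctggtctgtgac
Meg3: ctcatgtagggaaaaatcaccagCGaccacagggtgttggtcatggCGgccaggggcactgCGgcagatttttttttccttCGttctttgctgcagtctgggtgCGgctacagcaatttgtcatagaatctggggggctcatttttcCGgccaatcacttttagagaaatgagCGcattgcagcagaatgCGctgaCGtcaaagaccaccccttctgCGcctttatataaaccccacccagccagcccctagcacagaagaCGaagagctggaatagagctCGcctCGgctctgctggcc
Peg3: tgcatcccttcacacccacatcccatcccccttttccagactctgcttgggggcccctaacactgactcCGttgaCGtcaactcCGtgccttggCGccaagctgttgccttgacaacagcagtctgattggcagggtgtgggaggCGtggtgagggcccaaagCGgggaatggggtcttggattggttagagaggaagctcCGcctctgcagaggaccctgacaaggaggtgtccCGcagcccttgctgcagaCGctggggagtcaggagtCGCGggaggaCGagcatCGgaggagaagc
Mest: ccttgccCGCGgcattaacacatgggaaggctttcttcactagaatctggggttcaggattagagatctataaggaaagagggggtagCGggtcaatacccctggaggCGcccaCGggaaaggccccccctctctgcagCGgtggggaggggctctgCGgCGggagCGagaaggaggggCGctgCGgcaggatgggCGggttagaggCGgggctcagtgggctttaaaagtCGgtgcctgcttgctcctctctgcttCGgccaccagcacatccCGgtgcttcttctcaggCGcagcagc

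The 4 windows held 9 (Dlk1), 13 (Meg3), 13 (Peg3) and 17 (Mest) CG dinucleotides, against a median of 7 and an upper quartile of 20 over the 32851 RefSeq promoter windows. Plagl1 had the most of the members, 26. The window of Usp29, which starts beside Peg3 and runs the other way, shared 263 bases with that of Peg3. The hexamer TGCCGC, which the zinc finger protein ZFP57 binds when it is methylated, was searched on both strands. It was found in the windows of Meg3, Nnat, Plagl1 and Mest, 4 of the 8 members with a window. By window it was in 5 of 11, of which 2 are overlapping Mest windows, against 11.6% of all windows. The Mest window shown held it 2 times, and 1.53% of all windows held it 2 times or more. An upstream Mest window and a downstream Meg3 window held none. These matches describe letters only, and no methylation or binding was measured.

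Peg10 and Sgce, neighbours on chromosome 6, were both lower in cerebrum of PS mice, Peg10 by more. Peg10, a paternally expressed gene derived from a retrotransposon and needed for the placenta, had log2 intensities of 7.45, 8.10 and 7.57 in cerebrum PS 1 to 3, against 9.24, 9.65 and 9.23 in cerebrum MCT 1 to 3. All PS arrays were below all MCT arrays, and the gap between the groups was larger than the range within either. The difference, PS minus MCT, was -1.67 (SE 0.19), a level 3.17-fold higher in MCT cerebrum. Sgce encodes epsilon-sarcoglycan, a membrane protein whose human gene is mutated in myoclonus-dystonia, and it starts beside Peg10 on the opposite strand. It was at 8.65, 8.86 and 8.71 in PS cerebrum and at 9.08, 9.04 and 9.13 in MCT cerebrum, again without overlap, a difference of -0.34 (SE 0.08). PS 2, the PS array with the male pattern of Xist, was the nearest to the MCT arrays for both genes. For Dlk1 and Nnat, given below, it was the farthest.

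Dlk1 and Meg3 lie in 1 cluster on chromosome 12 and are expressed from opposite parental copies. Dlk1, a membrane protein of the Notch ligand family that restrains adipocyte differentiation, was at 5.49, 5.17 and 6.09 in PS cerebrum, against 7.56, 8.0 and 7.43 in MCT cerebrum. The groups were far apart, with PS 3 the nearest of the PS arrays to the MCT arrays. The difference was -2.08 (SE 0.24), a level 4.23-fold higher in MCT cerebrum. Meg3, a long non-coding RNA of the maternal copy, was at 10.45, 9.65 and 10.65 in PS cerebrum and at 10.70, 10.64 and 10.25 in MCT cerebrum. These groups overlapped, PS 2 was the low array, and the difference of -0.28 (SE 0.25) was 0.02 without PS 2.

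Nnat, which encodes neuronatin, a small membrane protein of the endoplasmic reticulum in neurons, was at 8.24, 8.09 and 8.94 in PS cerebrum, against 9.45, 10 and 9.22 in MCT cerebrum. All PS arrays were below all MCT arrays, by -1.13 on average (SE 0.26), and PS 3 was the nearest to the MCT arrays. Mest, which encodes a protein of the alpha/beta hydrolase fold family, went the other way. It was at 9.43, 9.22 and 9.16 in PS cerebrum and at 8.65, 8.82 and 9.01 in MCT cerebrum, all PS arrays above all MCT arrays, a difference of 0.44 (SE 0.12).

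Smaller or less certain differences were seen for the remaining members in cerebrum. Ndn and Magel2 encode the MAGE family proteins necdin and MAGEL2 of the region linked to Prader-Willi syndrome in humans. Ndn was at 11.11, 11.17 and 11.20 in PS cerebrum and at 11.28, 11.41 and 11.21 in MCT cerebrum, a difference of -0.14 (SE 0.08) with PS 3 and MCT 3 next to each other. Magel2 was below the filter on low values (the 40th percentile of transcript means) and averaged 4.00 ± 0.09 in PS cerebrum and 4.39 ± 0.05 in MCT cerebrum (SD, n = 3 each), a difference of -0.39 with no overlap at a low level. Peg3, a paternally expressed zinc finger protein, averaged 9.94 ± 0.10 in PS cerebrum and 9.99 ± 0.05 in MCT cerebrum (SD, n = 3 each), with overlapping arrays. Plagl1, a zinc finger transcription factor that restrains the cell cycle, was at 7.71, 7.53 and 7.95 in PS cerebrum and at 7.51, 7.58 and 7.48 in MCT cerebrum, also overlapping.

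**Figure D1:**
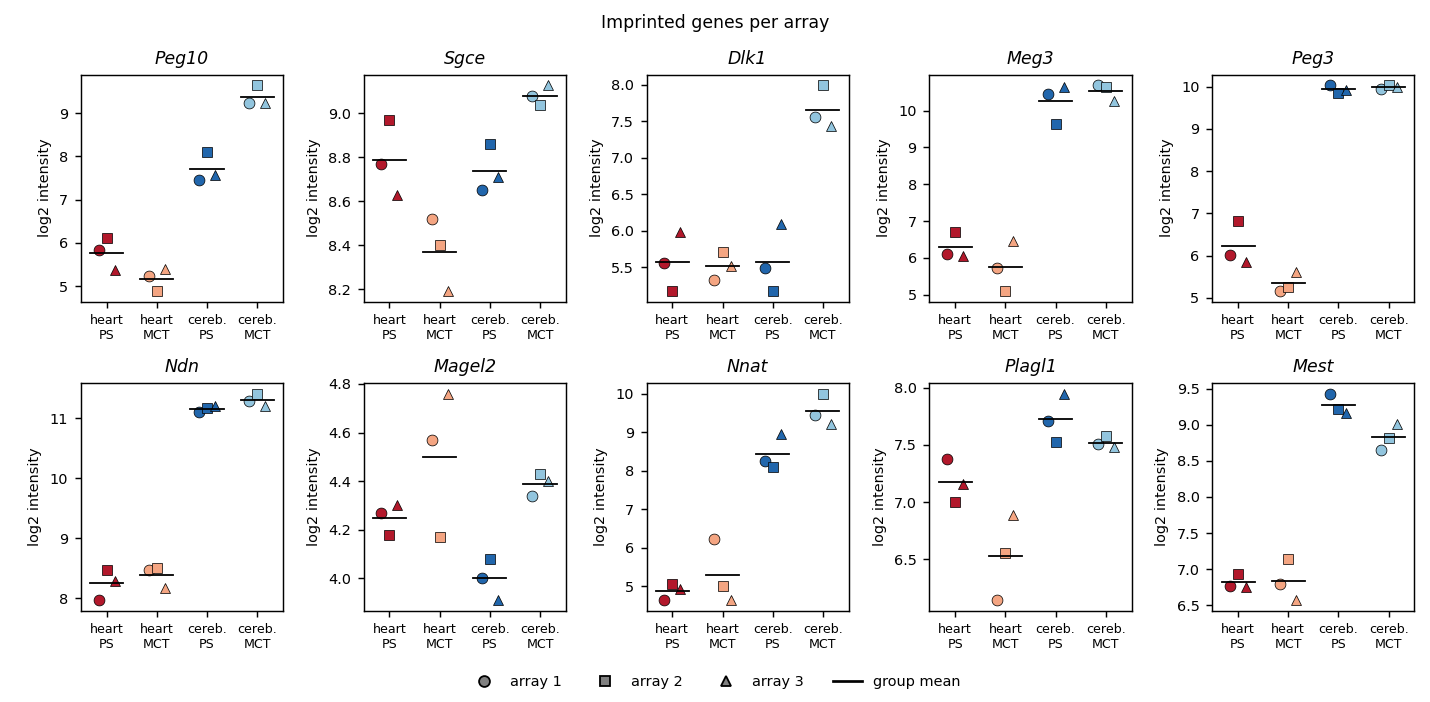
Log2 intensity of each of the 10 imprinted genes on each array; the x axis gives the 4 groups, symbols the array number, and black lines the group means (n = 3). In cerebrum the 3 PS arrays of Peg10, Dlk1 and Nnat lie below the 3 MCT arrays, whereas those of Mest lie above; each panel has its own y axis.

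Of the 9 members above the filter in cerebrum, 5 had all PS arrays below all MCT arrays (Peg10, Sgce, Dlk1, Ndn and Nnat) and 1 had them above (Mest). Over all 12733 transcripts tested, 20.4% were lower in this way and 12.4% were higher. Nothing is read from the members' count, since 2 of them were chosen on this contrast. The median difference was -0.28 over the 9 members and -0.03 over all transcripts. By array, 7, 8 and 7 of the 10 members were below their MCT mean in cerebrum PS 1, PS 2 and PS 3.

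Levels of several region and cell type markers also differed between the cerebrum arrays, and their part in the members' values was not tested. The 11 striatum markers measured were all lower in PS cerebrum, 4 of them past an adjusted p of 0.05 in limma, and all were above the filter; Pdyn, which encodes prodynorphin, was closest, at -0.32 with overlap. Their summed level was 10.77, 10.80 and 12.75 in PS cerebrum and 13.25, 13.37 and 13.25 in MCT cerebrum (log2). Drd2, a dopamine receptor, was at 5.55, 4.97 and 8.82 in PS cerebrum and at 9.49, 9.69 and 9.53 in MCT cerebrum, and Tac1, a tachykinin precursor, was 3.01 lower in PS cerebrum (log2). PS 3 had the highest striatum level of the PS arrays, 12.75, which was still below every MCT array. In PS 3, Peg10 was at 7.57 and Dlk1 at 6.09. With PS 3 as the only PS array the differences were -1.80 for Peg10, -1.57 for Dlk1 and -0.62 for Nnat. These values rest on 1 PS array and on the contrast that chose Dlk1 and Peg10, so they are a description.

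The 9 choroid plexus markers, 8 of them lower in PS cerebrum and 8 below the filter, summed to 7.78, 7.05 and 7.86 in PS cerebrum and to 10.97, 11.69 and 7.78 in MCT cerebrum. In MCT 3, whose choroid plexus level was within the PS range, Peg10 was at 9.23, Dlk1 at 7.43 and Nnat at 9.22. Against MCT 3 alone the differences were -1.52 for Peg10, -1.85 for Dlk1 and -0.80 for Nnat. These likewise rest on 1 array and are a description. The 10 hypothalamus markers, 9 of them lower in PS cerebrum and 5 below the filter, summed to 7.94, 7.93 and 9.10 in PS cerebrum and to 8.81, 9.24 and 8.12 in MCT cerebrum. Gal, which encodes galanin and was below the filter, and Oxt, which encodes oxytocin, differed most of them, by -1.75 and -1.22. Pomc was the 1 marker higher in PS cerebrum (1.09). It was at 4.62, 4.41 and 8.10 in PS cerebrum and at 4.55, 4.79 and 4.51 in MCT cerebrum, so the high sum of PS 3 came mostly from Pomc. Cerebral cortex markers were higher in PS cerebrum for 8 of 8 genes, at sums of 12.14, 12.24 and 11.62 in PS cerebrum and 11.46, 11.01 and 11.56 in MCT cerebrum, and 1 of them passed the adjusted threshold. The 4 oligodendrocyte markers were all lower in PS cerebrum, 2 of them past an adjusted p of 0.05 in limma: Opalin at -1.35 (adjusted p = 0.0337) and Mog at -0.73 (adjusted p = 0.0444). Their sums were 10.1, 10.35 and 10.51 in PS cerebrum and 10.96, 11.19 and 10.49 in MCT cerebrum.

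**Figure D2:**
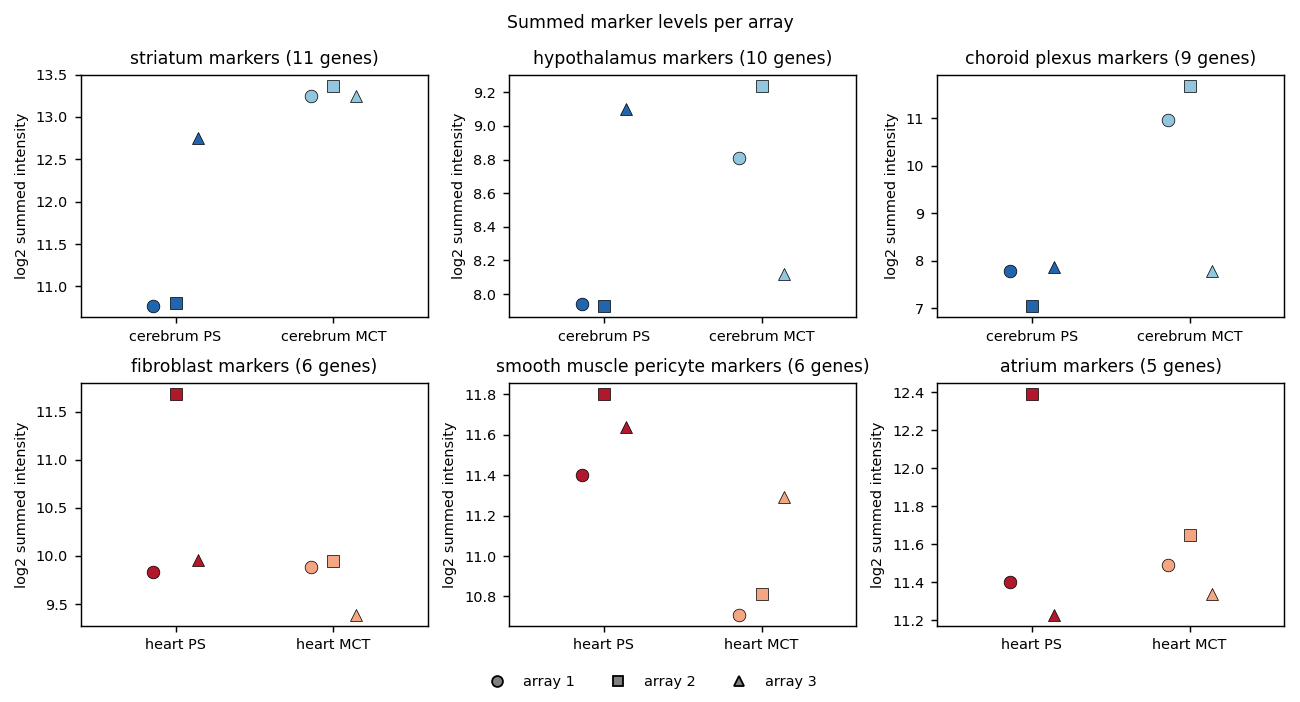
Summed intensity of marker genes (log2) per array for 3 brain regions in cerebrum (top) and 3 heart cell or chamber types in heart (bottom), PS left of MCT; symbols give the array number. Striatum markers are low in cerebrum PS 1 and PS 2, choroid plexus markers are high in cerebrum MCT 1 and MCT 2, and fibroblast markers are high in heart PS 2.

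Neighbours of the members in the same clusters were read in their chromosomal order. In the Peg10 cluster, Calcr, the calcitonin receptor, and Asb4, a substrate adaptor of a ubiquitin ligase, were below the filter but lower in PS cerebrum, by -1.21 and -0.91. Calcr was at 3.84, 3.95 and 3.97 in PS cerebrum and at 5.05, 5.28 and 5.06 in MCT cerebrum. Casd1, a sialic acid O-acetyltransferase, differed by -0.32 and Ppp1r9a, which encodes neurabin, by -0.21. Pon2 and Pon3 were at 0.09 and -0.17, and Tfpi2 at 0.00. Peg10 itself differed by -1.67 and Sgce beside it by -0.34.

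In the Peg3 cluster, Peg3 (-0.05) and Usp29, a ubiquitin-specific protease that starts within the shared promoter stretch, had unlike values. Usp29 was at 6.89, 6.76 and 6.76 in PS cerebrum and at 7.33, 7.70 and 7.37 in MCT cerebrum. Zim1, a zinc finger gene of the maternal copy, differed by -0.88 at a level below the filter. In the Dlk1 cluster, Rian, the long RNA beyond Meg3, differed by 0.15 and Dio3, a thyroid hormone deiodinase, by 0.04 near the floor of the array. Copg2 beside Mest differed by -0.07, Blcap around Nnat by -0.16, Ube3a beyond Ndn by -0.09, Mkrn3 by 0.02 and Peg12 by 0.03. Klf14 of the Mest cluster differed by 0.28 and Atp10a of the Ndn cluster by 0.60, each with all PS arrays above all MCT arrays.

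**Figure D3:**
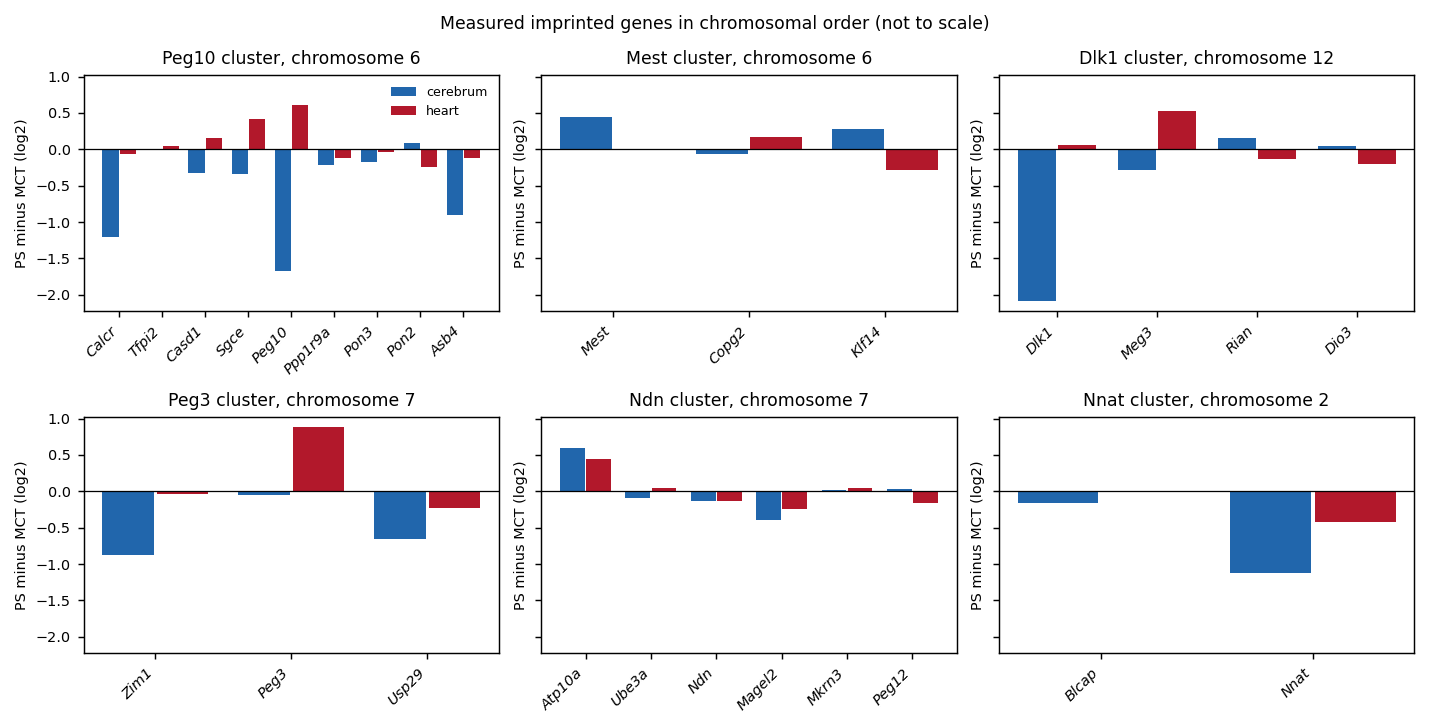
PS minus MCT difference (log2, y axis) of the measured imprinted genes of 6 clusters in chromosomal order (x axis, not to scale), in cerebrum (blue) and heart (red); bars start at 0 and carry no error. Dlk1 (-2.08) and Peg10 (-1.67) have the longest cerebrum bars, and Meg3, Rian and Dio3 in the Dlk1 cluster have short ones.

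Imprinted genes outside the 10 were tested in cerebrum. Of a list of 62 such genes 50 were measured, 12 were not analysed here (Rtl1, Mirg, Snrpn and H19 among them), and 35 passed the filter. Of these 35, 16 were higher and 18 lower in PS cerebrum, 1 had a difference of 0, and the median was -0.03, as over all transcripts. In limma, 4 passed an adjusted p of 0.05 and 13 an unadjusted p of 0.05, while over all transcripts 5.76% passed the first and 29.0% the second. Grb10, an adaptor that dampens insulin and IGF receptor signalling, fell: it was at 6.93, 6.34 and 6.64 in PS cerebrum and at 7.42, 7.68 and 7.38 in MCT cerebrum, a difference of -0.86 (SE 0.16, limma adjusted p = 0.0354). Usp29 fell by 0.66 (SE 0.11, limma adjusted p = 0.0342). Inpp5f, a phosphoinositide phosphatase, fell by 0.50 (SE 0.08, limma adjusted p = 0.0275), and Atp10a, a phospholipid-transporting ATPase, rose by 0.60 (SE 0.12, limma adjusted p = 0.0408).

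These calls depended on single arrays. None of the 4 passed without cerebrum PS 1, PS 2, MCT 1 or MCT 2 in turn, and none passed without both PS 1 and PS 2 or both MCT 1 and MCT 2. The direction of each was the same in every alternative run. Leaving out arrays could not change it, since the PS and MCT arrays of each did not overlap. Among the other imprinted genes followed, Igf2 was at 0.30 (limma adjusted p = 0.322), Cdkn1c at -0.03 (limma adjusted p = 0.818) and Casd1 at -0.32 (limma adjusted p = 0.0805).

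The chromosome 12 cluster also holds many small RNAs downstream of Meg3, and 31 imprinted small RNAs were measured, 30 of them on chromosome 12. The probes lie on the precursors or their host transcripts and do not measure mature miRNAs. Of 11 that passed the filter in cerebrum none was called in limma and 1 had an unadjusted p under 0.05, with 10 higher in PS cerebrum and a median of 0.21. Below the filter were 20. The mature sequences of 4 are given with the seed, bases 2 to 8, in capitals, since Mir134 and Mir485 passed the test between tissues described below and Mir377 and Mir382, chosen after their values were seen, are examples of the pattern over the arrays; no 2 of the 4 share a seed (RefSeq, GRCm38.p6, plus strand).
mmu-miR-134-5p: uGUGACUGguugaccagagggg
mmu-miR-485-3p: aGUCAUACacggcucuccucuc
mmu-miR-377-3p: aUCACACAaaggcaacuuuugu
mmu-miR-382-5p: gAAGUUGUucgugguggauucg

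All 30 small RNAs of chromosome 12 were lowest of the 3 PS arrays in cerebrum PS 2, and 22 of the 30 were lowest of the 3 MCT arrays in MCT 3. Of 269 other transcripts named as miRNA genes 37.5% were lowest in PS 2 and 37.5% in MCT 3, and of 21188 other transcripts 34.3% and 35.4%. The 30 lie in 1 cluster and may share host transcripts, so they do not count as 30 separate observations. The median log2 level of the 30 was 5.12, 4.13 and 5.17 in PS cerebrum and 4.95, 4.57 and 4.26 in MCT cerebrum. Mir377 was at 6.14, 5.07 and 6.19 in PS cerebrum and at 6.24, 6.36 and 5.30 in MCT cerebrum. Mir382 was at 6.63, 5.71 and 6.45 in PS cerebrum and at 6.62, 6.30 and 5.62 in MCT cerebrum. Meg3 and Rian had the same low arrays: Rian was at 5.67, 4.94 and 5.76 in PS cerebrum and at 5.61, 5.33 and 4.98 in MCT cerebrum. PS 2 was also the PS array with the male pattern of Xist, while MCT 3 shared that pattern with MCT 1 and MCT 2. The pattern was noticed in the data and then counted, and Dlk1, at the other end of the cluster, was lowest in the same 2 arrays, at 5.17 and 7.43.

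**Figure D4:**
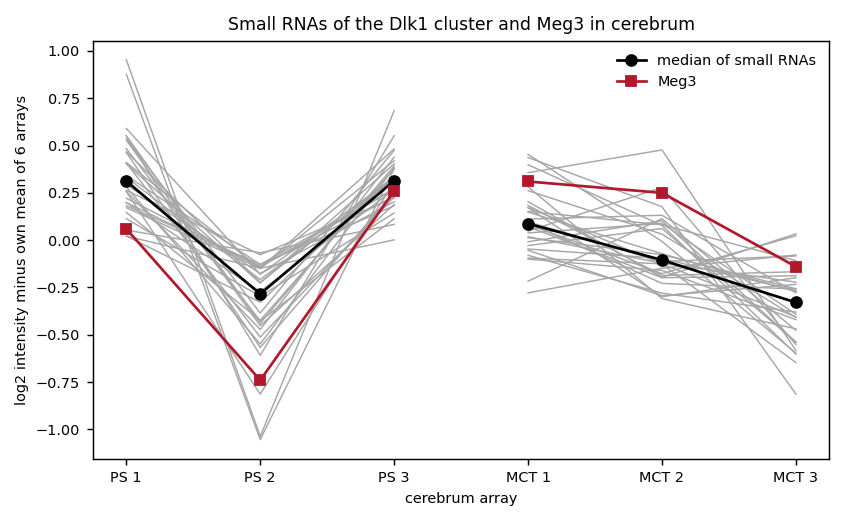
Log2 intensity minus each transcript's own mean over the 6 cerebrum arrays (y axis), by array (x axis), for the 30 small RNAs of chromosome 12 (grey lines), their median (black) and Meg3 (red). PS 2 is the lowest PS array for all 30 small RNAs and MCT 3 the lowest MCT array for 22; the lines join arrays of 1 group only to guide the eye.

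Profiles over the 6 cerebrum arrays were compared by the root mean square difference after each transcript was centred on its own mean. Of 10906 named genes, the 5 nearest to Dlk1 were Zcchc12 (0.22), the dopamine receptor gene Drd3 (0.23), Ecel1 (0.24), Unc13c (0.24) and Stk32a (0.26). The 5 nearest to Peg10 were Glra2 (0.29), the oligodendrocyte marker Opalin (0.32), Efcab1 (0.32), Zfp521 (0.32) and Scarna13 (0.34). Among the members, Peg10, Dlk1 and Nnat were nearest to one another, at 0.48 for Peg10 and Dlk1, 0.49 for Peg10 and Nnat and 0.48 for Dlk1 and Nnat. Mest was the farthest from Dlk1, at 1.32. The likeness rests on 6 arrays and on the same contrast that chose Dlk1 and Peg10.

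In heart, none of the 9 members above the filter passed an adjusted p of 0.05 in limma, while 0.33% of all 12736 transcripts did, and 4 members had an unadjusted p under 0.05, as did 23.7% of all transcripts. The 4 were Peg3, Plagl1, Sgce and Peg10, all higher in PS heart. Sgce, Peg3 and Plagl1, 3 of the 9, had all PS arrays above all MCT arrays, as did 17.2% of all transcripts.

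Peg3 was at 6.01, 6.81 and 5.84 in PS heart and at 5.15, 5.26 and 5.6 in MCT heart. PS 2 was the high array, and the difference was 0.88 (SE 0.26, limma adjusted p = 0.134). Plagl1 was at 7.38, 7.0 and 7.16 in PS heart and at 6.14, 6.55 and 6.89 in MCT heart, with PS 2 and MCT 3 close together. The difference was 0.65 (SE 0.20, limma adjusted p = 0.138).

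Sgce was at 8.77, 8.97 and 8.63 in PS heart and at 8.52, 8.40 and 8.19 in MCT heart, a difference of 0.42 (SE 0.14, limma adjusted p = 0.156) opposite in sign to that in cerebrum. Peg10 was at 5.84, 6.12 and 5.37 in PS heart and at 5.24, 4.88 and 5.39 in MCT heart, so PS 3 and MCT 3 overlapped. The difference was 0.61 (SE 0.22, limma adjusted p = 0.165), and the MCT 2 value was under the filter value of 4.93. Meg3 was at 6.11, 6.70 and 6.06 in PS heart and at 5.72, 5.09 and 6.46 in MCT heart, a difference of 0.53 (SE 0.33, limma adjusted p = 0.346) with overlap. Its lowest MCT array was MCT 2 and its highest MCT 3.

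Dlk1, the member with the widest gap in cerebrum, was at 5.56, 5.18 and 5.99 in PS heart and at 5.33, 5.71 and 5.52 in MCT heart. The arrays were interleaved, with a difference of 0.06 (SE 0.21, limma adjusted p = 0.885) that was -0.01 after median centring. Dlk1 was low in both heart groups, near the filter value of 4.93, which limits how large a fall could be seen there. Nnat was at 4.63, 5.05 and 4.93 in PS heart and at 6.23, 5.0 and 4.64 in MCT heart, where MCT 1 stood apart. The difference of -0.42 (SE 0.37, limma adjusted p = 0.494) was 0.05 without MCT 1, a value with no test because Nnat was then below the filter. Ndn differed by -0.14 (SE 0.17, limma adjusted p = 0.61) and Mest by -0.01 (SE 0.16, limma adjusted p = 0.967), both with overlap. Magel2, below the filter, averaged 4.25 ± 0.06 in PS heart and 4.50 ± 0.30 in MCT heart (SD, n = 3 each).

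Heart PS 2 was the highest PS array for 7 of the 10 members and also had the highest fibroblast markers. The 6 fibroblast markers, all higher on average in PS heart and all above the filter, summed to 9.83, 11.68 and 9.96 in PS heart and to 9.89, 9.95 and 9.39 in MCT heart. Postn, which encodes periostin, was at 7.02, 10.41 and 7.18 in PS heart and at 6.68, 7.18 and 6.62 in MCT heart. Without PS 2 the differences were 0.59 for Peg3, 0.74 for Plagl1, 0.33 for Sgce, 0.43 for Peg10 and 0.33 for Meg3. The 6 smooth muscle and pericyte markers, all above the filter and all higher in PS heart, summed to 11.4, 11.8 and 11.64 in PS heart and to 10.71, 10.81 and 11.29 in MCT heart. The 6 endothelium markers, likewise all higher, summed to 12.13, 12.31 and 12.12 in PS heart and to 11.56, 11.76 and 11.94 in MCT heart. The 5 adipocyte markers, 3 of them below the filter, summed to 7.22, 6.98 and 7.49 in PS heart and to 8.13, 6.56 and 6.86 in MCT heart. The atrium marker Myl7 was at 4.16, 4.17 and 6.80 in PS heart and at 4.37, 5.08 and 8.53 in MCT heart. The part of these markers in the members' values was not tested.

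Leaving out MCT 3 changed the heart calls. Without it 3 members passed in limma: Plagl1 at 0.83 (adjusted p = 0.0183), Peg3 at 1.01 (adjusted p = 0.0404) and Meg3 at 0.89 (adjusted p = 0.0471). In that fit 26.8% of all transcripts passed, and 22.5% did without both PS 2 and MCT 3. With both left out, Plagl1 at 0.93 (limma adjusted p = 0.017) and Peg3 at 0.72 (limma adjusted p = 0.015) passed. Of 33 other imprinted genes tested in heart, 21 were higher and 12 lower in PS heart, with a median of 0.15 against 0.06 over all transcripts. None passed the adjusted threshold in limma and 5 had an unadjusted p under 0.05, against 23.7% of all transcripts; without MCT 3 12 passed, against 26.8%.

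**Figure D5:**
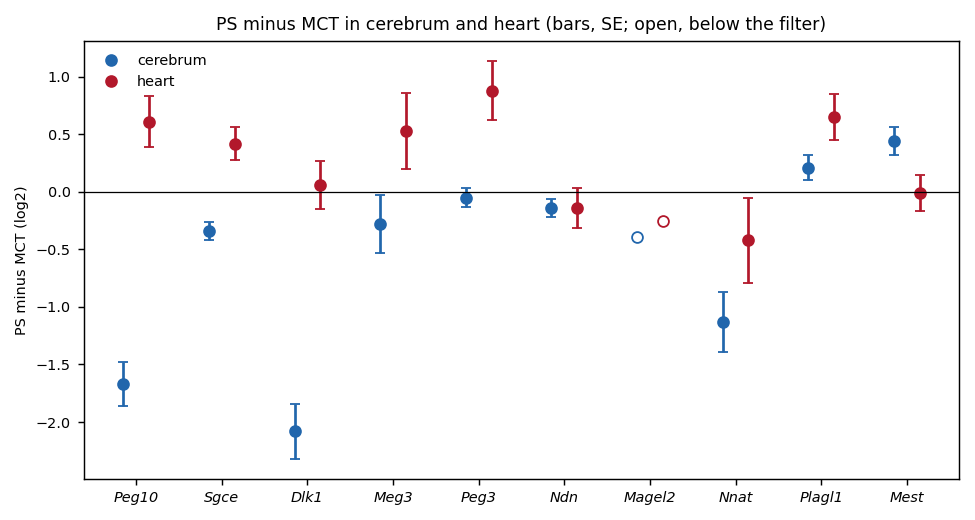
PS minus MCT difference (log2, y axis) of the 10 genes in cerebrum (blue) and heart (red), with bars of 1 SE from limma; open points are below the filter and have no SE. Sgce lies below 0 in cerebrum (-0.34) and above 0 in heart (0.42), and Dlk1 lies at -2.08 in cerebrum and 0.06 in heart.

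The members' differences in both tissues are given side by side. The cerebrum and heart differences were -1.67 and 0.61 for Peg10, -2.08 and 0.06 for Dlk1, -1.13 and -0.42 for Nnat (0.05 in heart without MCT 1), and 0.44 and -0.01 for Mest. The difference between tissues was not tested for the members, because the cerebrum contrast chose them. Among the other imprinted genes, 36 were tested for it and 2 passed in limma, where 1.52% of all transcripts did. Grb10 had a PS effect in cerebrum minus that in heart of -1.37 (limma adjusted p = 0.0205). Its heart arrays were at 8.67, 8.88 and 8.65 in PS mice and at 7.93, 8.29 and 8.45 in MCT mice, all PS arrays above all MCT arrays, opposite to cerebrum. Inpp5f had a difference of -0.66 (limma adjusted p = 0.0361). Each was lost in some alternatives: 15 of 19 kept the call of Grb10 and 7 of 19 that of Inpp5f.

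Between tissues of MCT mice, every member above the filter was lower in heart. Dlk1 and Peg10 were chosen on a contrast that includes the MCT cerebrum arrays, so their values here are a description. The 7 others fitted passed an adjusted p of 0.05 in limma, where 75.5% of all 12734 transcripts were called and 40.3% were called lower in heart. Meg3 was at 5.72, 5.09 and 6.46 in MCT heart and at 10.70, 10.64 and 10.25 in MCT cerebrum, 27.3-fold lower in heart (-4.77, SE 0.31, limma adjusted p = 1.12e-06). Peg3 averaged 5.34 ± 0.23 in MCT heart and 9.99 ± 0.05 in MCT cerebrum (SD, n = 3 each), 25.1-fold lower in heart (limma adjusted p = 1.07e-08). Nnat was 19.2-fold lower in heart (-4.27, SE 0.38) and Peg10 18.4-fold (-4.20, SE 0.17). The heart mean of Peg10, 5.17, was under the filter value of 5.23. That of Nnat was 5.29, and 4.82 without MCT 1. Peg3 and Meg3 each had a MCT heart array under the filter value, at 5.15 and 5.09. The sizes given for these genes are therefore approximate.

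Ndn, at 8.39 ± 0.18 in MCT heart and 11.30 ± 0.10 in MCT cerebrum (SD, n = 3 each), was 7.53-fold lower in heart while still well above the filter there. Dlk1 was 4.42-fold lower in heart (-2.14, SE 0.17) and Mest 3.97-fold (-1.99, SE 0.17). Plagl1 (-1.0, SE 0.18) and Sgce (-0.71, SE 0.12) differed least, and with median centring they were at -0.66 and -0.38. Magel2, below the filter in both tissues, was at 4.50 ± 0.30 in MCT heart and 4.39 ± 0.05 in MCT cerebrum (SD, n = 3 each). In PS mice Dlk1 averaged 5.58 ± 0.41 in heart and 5.58 ± 0.47 in cerebrum (SD, n = 3 each), whereas Peg10 averaged 5.78 ± 0.38 in heart and 7.71 ± 0.35 in cerebrum.

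The other imprinted genes went both ways between the tissues. Of 37 tested in MCT mice, 31 passed in limma, 13 higher and 18 lower in heart, with a median of -0.28 against -0.07 over all transcripts. Over all transcripts, 75.5% were called and 40.3% were called lower in heart. For 12 of the 31, among them Nap1l5, Usp29, Zdbf2, Kcnk9, Htr2a, Kcnq1, Pon3, Slc38a4 and Asb4, the mean of the lower tissue was under the filter value. These 12 passed the filter only through the tissue where they are high, so their direction was favoured in advance. Their sizes are approximate and their order is not firm. Among the lower ones were Nap1l5, a nucleosome assembly protein-like gene (-5.50), and Rasgrf1, a neuronal exchange factor for Ras (-4.07). Others were Htr2a, a serotonin receptor (-3.50), Usp29 (-3.42), Zdbf2 (-3.42), the potassium channel gene Kcnk9 (-3.15), Gatm of creatine synthesis (-2.91) and Ppp1r9a (-2.81). Among the higher ones were Kcnq1, the channel of the slow delayed rectifier current in heart (3.59), and Pon3, a paraoxonase (3.53). Airn, the antisense RNA of Igf2r (2.95), Slc38a4, an amino acid transporter (2.47), Igf2r (2.34), Phactr2 (1.61), Pon2 (1.25) and Asb4 (1.21) were also higher. The genes of a sense and antisense pair such as Igf2r and Airn may not be told apart by every probe. Of 31 small RNAs measured, 28 were below the filter. Of the 3 tested, Mir134 (-2.27) and Mir485 (-1.30) passed, both lower in heart, where 75.5% of all transcripts were called. Mir134 averaged 4.51 in MCT heart, under the filter value, and was tested only through its cerebrum level. Its direction was therefore favoured in advance.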

How the data were processed

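Total RNA from heart and cerebrum was labelled with biotin and hybridised to 12 whole-transcript arrays. The authors deposited 1 value per transcript cluster and array, made with the Expression Console software of Affymetrix (per the submitters' processing notes). No version, summary step or build is stated in the sources used. From their range (1.9 to 13.11, above 11.1, the natural log of a 16-bit maximum) and array medians, these deposited numbers were read as log2 intensities and not normalized again. Of 35556 transcript clusters, 21218 had 1 gene symbol in the platform annotation, 1881 had several and 12457 had no entry; those with 1 were kept.

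Groups came from the sample labels. Transcripts whose mean reached the 40th percentile over the fitted arrays were tested with limma 3.58.1 in R 4.3.3 (lmFit, eBayes, Benjamini-Hochberg over all transcripts, threshold 0.05), fitting only the arrays compared, or all 12 for the difference between tissues. The script was tested on simulated data. The number of arrays limits the precision. The members and all gene lists were chosen with earlier results of these data known. Named were all members, other imprinted genes past the threshold (up to 8 per direction and comparison) and a fixed set of cluster neighbours.

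Array numbers were checked as pairs by correlating deviations from group means. Equal numbers gave 0.11, -0.15 and -0.26 for PS and MCT cerebrum and 0.03, 0.09 and 0.12 for PS and MCT heart, and 0.11, 0.10 and 0.29 for MCT heart and MCT cerebrum, so only the last met the rule for pairs, from this check and not from a label. The values given come from fits without the replicate block, which was run as an alternative in every comparison. Alternatives were quantile normalization, median centring, no filter, a 60th percentile filter, an intensity trend, array weights, the replicate block, leaving out each array, and 4 pairs of arrays left out that were chosen after seeing marker levels. Some items are not analysed here.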

Additional observations from a re-analysis of the deposited data

Results flagged for a closer look

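Sgce differed in opposite directions in the 2 tissues, by -0.34 in cerebrum, where every PS array was below every MCT array, and by 0.42 in heart, where every PS array was above every MCT array; the difference between tissues was not tested. Grb10 had a PS effect in cerebrum minus that in heart of -1.37, and Inpp5f of -0.66, each by a tested interaction (limma adjusted p = 0.0205 and 0.0361). In heart the female pattern of Xist and PS cannot be told apart. In cerebrum the striatum and cortex marker sums did not overlap between PS and MCT arrays. Choroid plexus and oligodendrocyte markers were mostly lower in PS cerebrum, but their sums in MCT 3 lay within the PS range. The part of these markers in the 3 differences was not tested. Groups of 3 arrays were too small for a check of single arrays that stand apart.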

How the results depend on the processing

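Over the alternatives, the cerebrum differences were -1.86 to -1.52 for Peg10, -2.33 to -1.57 for Dlk1 and -1.39 to -0.62 for Nnat. They were -0.40 to -0.30 for Sgce and 0.26 to 0.62 for Mest. The PS and MCT arrays of these genes did not overlap, so leaving out arrays could not change the direction. The ranges are a description. The differences of Meg3 (-0.48 to 0.12) and Peg3 (-0.10 to 0.01) took both directions. In heart, Dlk1 turned to -0.01 with median centring and was between -0.15 and 0.26 with arrays left out in turn (-0.15 without PS 3, -0.04 without MCT 1). Mest in heart was between -0.15 and 0.14 with arrays left out in turn, turning to 0.01 without PS 1, 0.02 without PS 3 and 0.14 without MCT 2, and was -0.34 with array weights (limma adjusted p = 0.0103) and -0.20 without PS 2 and MCT 3. Nnat in heart turned to 0.05 without MCT 1, where it fell below the filter and had no test. The array-weight fits stopped before convergence in places, so their values are approximate.

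Of the counts, the 734 transcripts called in cerebrum became 3407 with array weights, 0 with the replicate block, 0 to 1557 with arrays left out in turn (0 without PS 1 or MCT 1, 2 without MCT 2, 145 without PS 2 and 1557 without PS 3), 0 without MCT 1 and MCT 2, and 12 without PS 1 and PS 2. The 4 other imprinted genes called became 13 with array weights, 0 with the replicate block, 0 without either pair of arrays, and 0 to 6 with arrays left out in turn. In heart, the 42 transcripts became 6987 with array weights, 88 with the replicate block, 4 to 3416 with arrays left out in turn (3416 without MCT 3) and 2870 without PS 2 and MCT 3. The 0 members became 7 with array weights, 0 to 3 with arrays left out in turn and 2 without that pair; the 0 other imprinted genes became 19, 0 to 12, and 12. Between tissues in MCT mice, the 9610 transcripts became 6396 with the 60th percentile filter, which tests fewer genes. The 31 other imprinted genes became 20 with it. The 7 members other than Dlk1 and Peg10 passed in every alternative, the replicate block included. In the main fit 75.5% of all transcripts passed. The values of Dlk1 and Peg10 are a description, since the same MCT cerebrum arrays had a part in choosing them. For the PS effect compared between tissues, the 194 transcripts became 0 with the replicate block and 3 to 1629 with arrays left out in turn, and the 2 other imprinted genes became 1 with quantile normalization, 1 with median centring, 0 with the replicate block and 0 to 5 with arrays left out in turn. Beyond the alternatives' own construction, the cause was not tested.

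Calls split into 31.7% higher in PS cerebrum, and 48.6% with quantile normalization or 48.0% with median centring; between tissues the share higher in heart was 46.6%, 55.3% and 61.0%, as the median of all transcripts moved to 0.11 and 0.26 against -0.07, and all 9 members were lower in heart under each. For the difference between tissues the share was 27.8%, 38.4% and 51.0%. The replicate block pairs arrays that share only a number in the PS against MCT comparisons. In heart every array correlated best with its own number, a hint from the data; in cerebrum 1 of 3 did. The choice among several transcript clusters of a gene was not run for the members, since each has 1. With 3 arrays a group, low transcripts such as Magel2, below the filter, were given as values only.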
